A study of Chlorocebus aethiops with 12 samples.

Results

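The TSC22D family was followed in COS-1 cells, a fibroblast-like line from African green monkey kidney, after treatment with the synthetic glucocorticoid dexamethasone. Members were all array probes that carry 1 of 6 listed transcript records of the genes TSC22D3, TSC22D1, TSC22D2 and TSC22D4. The rule found 6 probes among 41000 non-control probes: 1 for TSC22D3 (record NM_004089), 1 for TSC22D1 (NM_183422), 2 for TSC22D2 (NM_014779) and 2 for TSC22D4 (NM_030935). The other listed isoform records, NM_198057 of TSC22D3 and NM_006022 of TSC22D1, were not analysed here, so no isoform was set against another. A probe may also bind other isoforms of its gene, and probe sequences were not used here.

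Cells carried V5-tagged mouse CCRP (mCCRP-V5), a co-chaperone of nuclear receptors, together with FLAG-tagged human glucocorticoid receptor (FLAG-hGR). The 4 groups were Y30E-DEX, Y30E-DMSO, Y30F-DEX and Y30F-DMSO, with 3 arrays each. Y30E and Y30F are receptors with glutamate or phenylalanine in place of a tyrosine in the N-terminal part. DEX stands for 100 nM dexamethasone and DMSO for the vehicle at 0.1%, each given for 6 h from 40 h after transfection. All groups were transiently transfected, and none with a wild-type receptor or with no receptor was analysed here. By the sample descriptions every culture received both constructs, whereas the construct label names just mCCRP-V5 for Y30F samples and just FLAG-hGR for Y30E samples. Whether the 3 replicates came from separate cultures is not stated in the labels, and the p-values therefore reflect array-to-array spread that may be technical only. The transfected transcripts and marker genes of the cell line were not analysed here, since the files pair records with no gene names.

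TSC22D proteins share a conserved TSC box beside a leucine zipper, through which they form dimers. TSC22D3 is better known as GILZ, the glucocorticoid-induced leucine zipper. Its gene is a direct target of the glucocorticoid receptor in many cell types, and GILZ binds NF-kappaB and AP-1 subunits and Ras-Raf proteins. TSC22D1 was first described as a transcript stimulated by TGF-beta, TSC22D4 is also called THG-1, and TSC22D2 is the least studied of the family.

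On each array 60.5% to 67.0% of spots were well above background. Of the 41000 probes, 25570 passed the filter on dim probes and were tested, and 5 of the 6 family probes were among them. The arrays lay on 3 slides. Slide 3 carried all Y30E-DEX arrays beside Y30E-DMSO replicate 3, and slide 1 carried all Y30F-DMSO arrays beside replicate 1 of Y30F-DEX. Slide 2 carried replicates 1 and 2 of Y30E-DMSO and replicates 2 and 3 of Y30F-DEX. Slide 2 had 65.3% to 67.0% of spots well above background. Because slides and groups overlap in this way, the dexamethasone results below are also given within 1 slide. The RNA is from monkey and the probes are human, so signal levels were not set against each other between probes.

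TSC22D3 rose under dexamethasone with both receptors, about 1.7-fold. Its processed signal was 338, 324 and 279 on the 3 Y30E-DEX arrays and 195, 172 and 195 on the 3 Y30E-DMSO arrays. With the other receptor it was 314, 287 and 341 on the Y30F-DEX arrays and 137, 232 and 195 on the Y30F-DMSO arrays. Every dexamethasone array lay above every vehicle array. The Y30F-DMSO arrays were far more spread than the rest.

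On the log2 scale relative to each array's 75th percentile, TSC22D3 averaged -1.35 ± 0.09 in Y30E-DEX and -2.07 ± 0.05 in Y30E-DMSO (SD, n = 3 each). The difference was 0.73 ± 0.15 (SE), a 1.65-fold rise with a 95% interval of 1.31 to 2.09 (limma, Benjamini-Hochberg adjusted p = 0.0413). It averaged -1.37 ± 0.05 in Y30F-DEX and -2.19 ± 0.39 in Y30F-DMSO (SD, n = 3 each). That difference was 0.82 ± 0.15 (SE), a 1.76-fold rise with an interval of 1.40 to 2.23 (limma adjusted p = 0.0228). The fit uses a single spread for the 4 groups, so both SEs include the wide Y30F-DMSO spread. Neither interval therefore reflects the spread of its own groups alone. TSC22D3 was the single family probe past the threshold, an adjusted p of 0.05, in either comparison, where 1.98% of all probes passed with Y30E and 1.65% with Y30F.

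**Figure D1:**
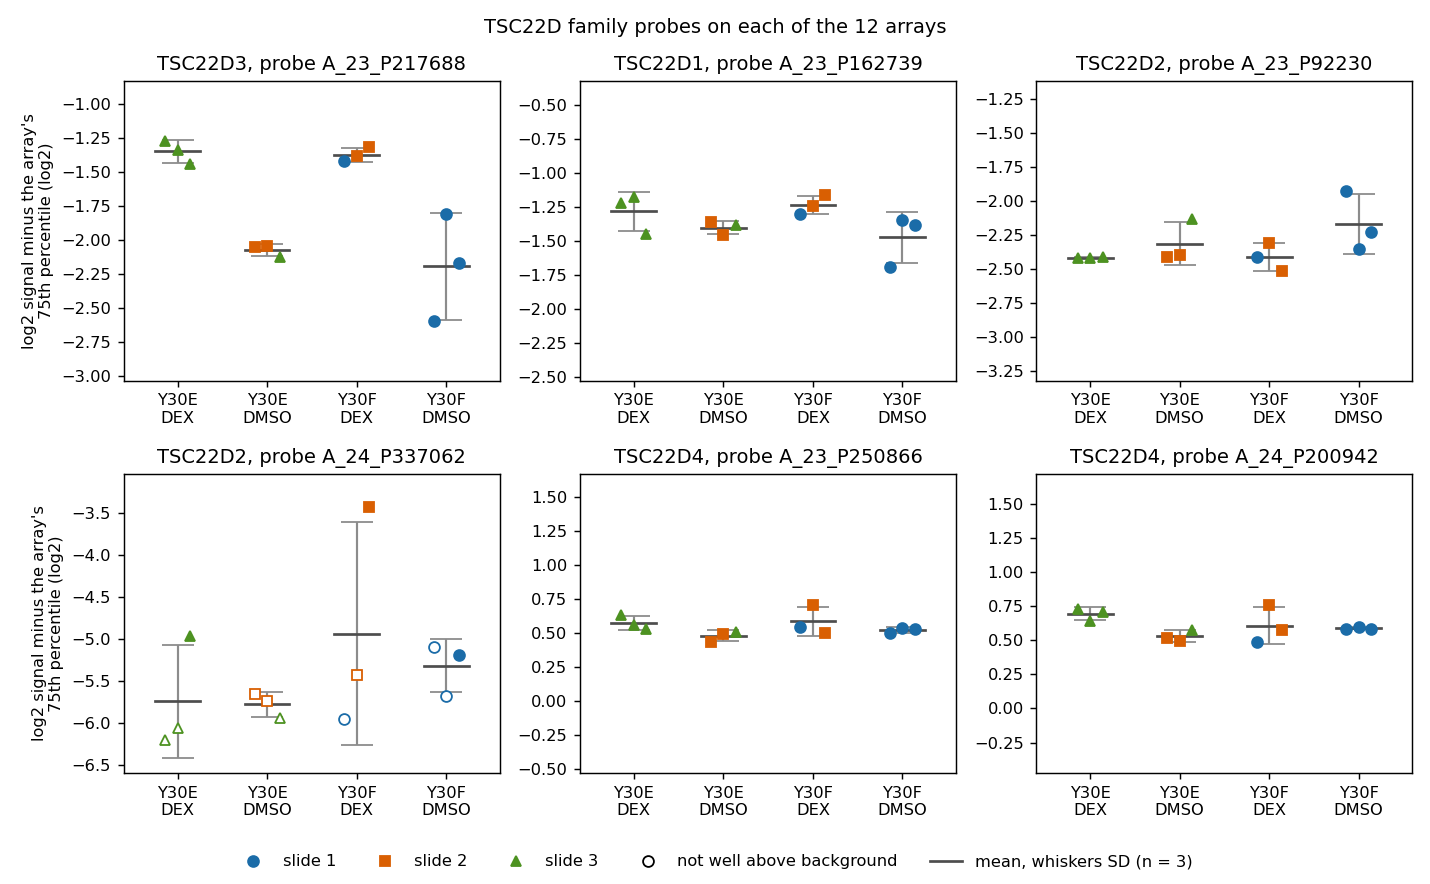
Each point is 1 array, drawn as the log2 signal minus that array's 75th percentile (vertical axis, log2) for the 4 groups (horizontal axis). Lines are group means and whiskers SDs (n = 3); shape and colour give the slide, and open points were not well above background. All panels but that of probe A_24_P337062 span the same height. The 6 dexamethasone arrays lie above the 6 vehicle arrays for TSC22D3 alone.

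As background, 355 of 25570 probes (1.39%) were higher past the threshold in Y30E-DEX against Y30E-DMSO. In Y30F-DEX against Y30F-DMSO 325 (1.27%) were. Called in either direction were 506 probes with Y30E, but 220 to 287 without Y30E-DMSO replicate 1 or 2 or any 1 Y30E-DEX array. The Y30E count rose to 667 without Y30E-DMSO replicate 3 and to 580 without Y30F-DEX replicate 1. With Y30F 421 were called, but 1488 without Y30F-DEX replicate 1 and 252 without Y30F-DEX replicate 3. The share of probes called that were higher in Y30F was 77.2%, and it was 63.1% with quantile normalization and 46.1% with median centring. Probes higher past the threshold with both receptors, as TSC22D3 was, numbered 219 (0.856%). By the size of the log2 difference TSC22D3 was the 173rd highest of all probes with Y30E and the 446th highest with Y30F. The median log2 difference over all probes was -0.005 with Y30E and 0.019 with Y30F.

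**Figure D2:**
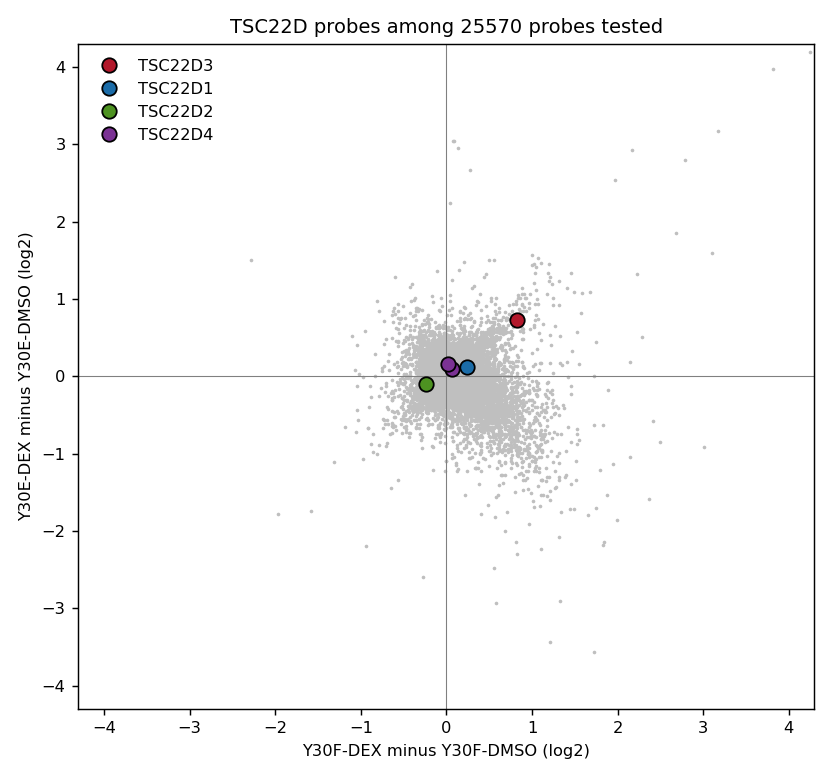
Each grey point is 1 of 25570 probes, placed by its log2 difference in Y30F (horizontal axis) and in Y30E (vertical axis), both dexamethasone minus DMSO. TSC22D3 lies at 0.82 and 0.73, away from the main cloud in the upper right, and the other 4 family probes lie within 0.25 of 0 on both axes.

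Over both receptors together, TSC22D3 was on average 0.77 (log2) higher under dexamethasone. Its values ran from -1.44 to -1.27 on the 6 dexamethasone arrays and from -2.60 to -1.81 on the 6 DMSO arrays. An exact permutation test (2-sided, treatment labels permuted within each receptor, 400 arrangements) gave p = 0.005, the smallest it can give. Labels were permuted without regard to slide, here and in the exact tests below, so such a p cannot separate treatment from slide. That smallest p was reached by 4.77% of probes, and in 2.39% of probes all 6 dexamethasone arrays were higher than all 6 DMSO arrays.

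Within slides the size of the TSC22D3 difference was nearly the same. It was 0.78 on slide 3 (3 Y30E-DEX arrays against 1 Y30E-DMSO array) and 0.77 on slide 1 (1 Y30F-DEX array against 3 Y30F-DMSO arrays). With slide as a fixed block these sizes had wider errors (0.78 ± 0.23 with Y30E and 0.77 ± 0.23 with Y30F, SE), and neither passed (limma adjusted p = 0.309 and 0.252). Arrays of slide 2 differed little from others of the same group for this probe, by 0.07 in Y30F-DEX and by 0.08 in Y30E-DMSO (log2, slide 2 minus the other slide).

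The calls also depended on single arrays, although the direction did not. With Y30E the difference was no longer called after leaving out any 1 of the 6 Y30E arrays, Y30F-DMSO replicate 3, or Y30F-DEX replicate 2 or 3. In these 9 cases it was 0.69 to 0.77, with limma adjusted p from 0.0621 to 0.143. The Y30E call stayed without Y30F-DMSO replicate 1 or 2 or Y30F-DEX replicate 1. The fit shares a single spread over the 4 groups, so arrays of the other receptor bear on each call. With the compared groups alone the Y30E difference passed and the Y30F difference did not. With Y30F the call ended without Y30F-DMSO replicate 3 (0.83, adjusted p = 0.0764), Y30F-DEX replicate 2 (0.82, 0.0824) or Y30F-DEX replicate 3 (0.79, 0.101). Without Y30F-DMSO replicate 1, the lowest array, the Y30F difference was 0.62 (adjusted p = 0.0199), and without replicate 2 of that group, the highest, it was 1.01 (0.00289).

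**Figure D3:**
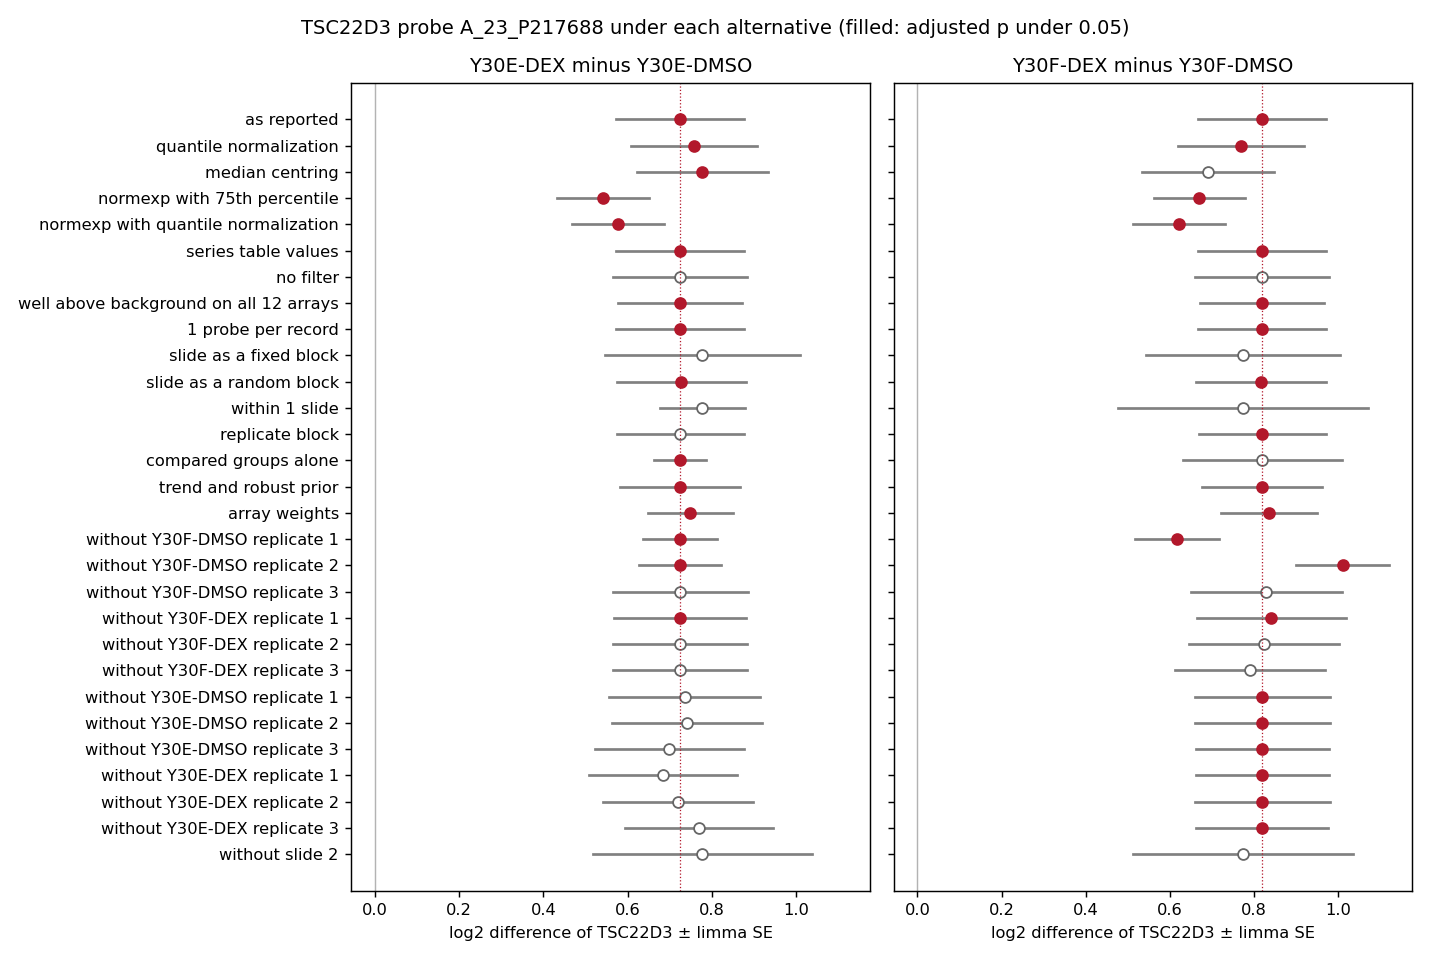
Points are the log2 difference of TSC22D3 (horizontal axis, with limma SE as bars) under each alternative (rows), with Y30E on the left and Y30F on the right. Filled points had an adjusted p under 0.05, and the dotted line is the value reported. All points lie above 0, from 0.54 to 0.78 with Y30E and from 0.62 to 1.01 with Y30F.

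The TSC22D1 probe showed a smaller difference that did not pass. Its signal was 349, 362 and 277 in Y30E-DEX against 315, 257 and 326 in Y30E-DMSO. It was 341, 317 and 380 in Y30F-DEX against 257, 320 and 335 in Y30F-DMSO. On the relative log2 scale the Y30E groups overlapped, and all Y30F-DEX arrays were above all Y30F-DMSO arrays, as held for 9.59% of probes.

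For TSC22D1 the Y30E difference was 0.12 ± 0.10 (log2, SE; limma adjusted p = 0.639). The Y30F difference was 0.24 ± 0.10, with a 95% interval from 0.02 to 0.46 (unadjusted p = 0.0341, limma adjusted p = 0.339), and 12.9% of probes had an unadjusted p under 0.05 there. Within slides the TSC22D1 difference was 0.10 with Y30E and 0.17 with Y30F, resting on a lone Y30E-DMSO and a lone Y30F-DEX array. Over both receptors 5 of 6 dexamethasone arrays were above all 6 DMSO arrays, by 0.18 on average (exact permutation p = 0.025, unadjusted, 1 of 5 such tests). An exact p under 0.05 was found for 13.2% of probes.

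TSC22D2 had 1 probe well above background on all 12 arrays, A_23_P92230, and its values lay lower under dexamethasone without passing. The signal was 152, 153 and 142 in Y30E-DEX against 152, 134 and 193 in Y30E-DMSO. It was 157, 151 and 149 in Y30F-DEX against 217, 159 and 187 in Y30F-DMSO. On this scale the Y30E groups overlapped, and the nearest arrays of the Y30F groups had 157 in Y30F-DEX and 159 in Y30F-DMSO.

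The log2 difference of this TSC22D2 probe was -0.10 ± 0.11 with Y30E and -0.24 ± 0.11 with Y30F (SE; limma adjusted p = 0.736 and 0.391). The 95% intervals ran from -0.35 to 0.14 and from -0.49 to 0.003. All 3 Y30E-DEX arrays lay below all 3 Y30E-DMSO arrays, as for 11.7% of probes, with the nearest arrays of both groups at -2.41 (relative log2). Within slides the differences were -0.28 with Y30E and -0.24 with Y30F, resting on a lone Y30E-DMSO and a lone Y30F-DEX array. In Y30E-DMSO the slide 2 arrays were 0.27 lower than the slide 3 array. Over both receptors the average was -0.17 (exact permutation p = 0.055, unadjusted, among 5 such tests).

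The second TSC22D2 probe, A_24_P337062, was too dim to test. It was well above background on 3 of 12 arrays, 1 each of Y30E-DEX, Y30F-DEX and Y30F-DMSO, with signals of 24.1, 78.8 and 24.0. On the other arrays its signal was 11.1 to 24.3. The 2 TSC22D2 probes therefore could not be compared for direction.

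Both TSC22D4 probes were well above background on every array, and neither passed the test. Probe A_23_P250866 had signals of 1261, 1208 and 1089 in Y30E-DEX against 1094, 996 and 1211 in Y30E-DMSO. It had 1223, 1225 and 1207 in Y30F-DEX against 1171, 1183 and 1267 in Y30F-DMSO. Probe A_24_P200942 ran from 1238 to 1353 in Y30E-DEX, 993 to 1269 in Y30E-DMSO, 1179 to 1271 in Y30F-DEX and 1230 to 1315 in Y30F-DMSO. The groups overlapped on this scale for both probes.

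Relative to the 75th percentile, the TSC22D4 log2 differences were 0.09 ± 0.06 and 0.17 ± 0.07 with Y30E (SE; limma adjusted p = 0.529 and 0.298), in the order of the probes above. They were 0.06 ± 0.06 and 0.02 ± 0.07 with Y30F (limma adjusted p = 0.721 and 0.936). On this scale both probes were higher in all Y30E-DEX arrays than in all Y30E-DMSO arrays, as were 10.5% of probes. All 4 intervals lay within -0.13 and 0.31, so a TSC22D4 difference as large as that estimated for TSC22D3 lay outside them. With Y30E the interval of A_24_P200942 ran from 0.02 to 0.31 (limma unadjusted p = 0.0297). An unadjusted p under 0.05 was found for 13.9% of probes in that comparison. Over both receptors the averages were 0.08 and 0.09 (exact permutation p = 0.04 and 0.08, unadjusted, among 5 such tests). An exact p under 0.05 was as common as 13.2% over all probes. Within slides, with a lone Y30E-DMSO or Y30F-DEX array, A_23_P250866 differed by 0.06 with Y30E and 0.02 with Y30F. A_24_P200942 differed by 0.12 with Y30E and by -0.10 with Y30F, where the sign changed. In Y30F-DEX the slide 2 arrays were 0.06 and 0.18 above the slide 1 array for these probes.

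**Figure D4:**
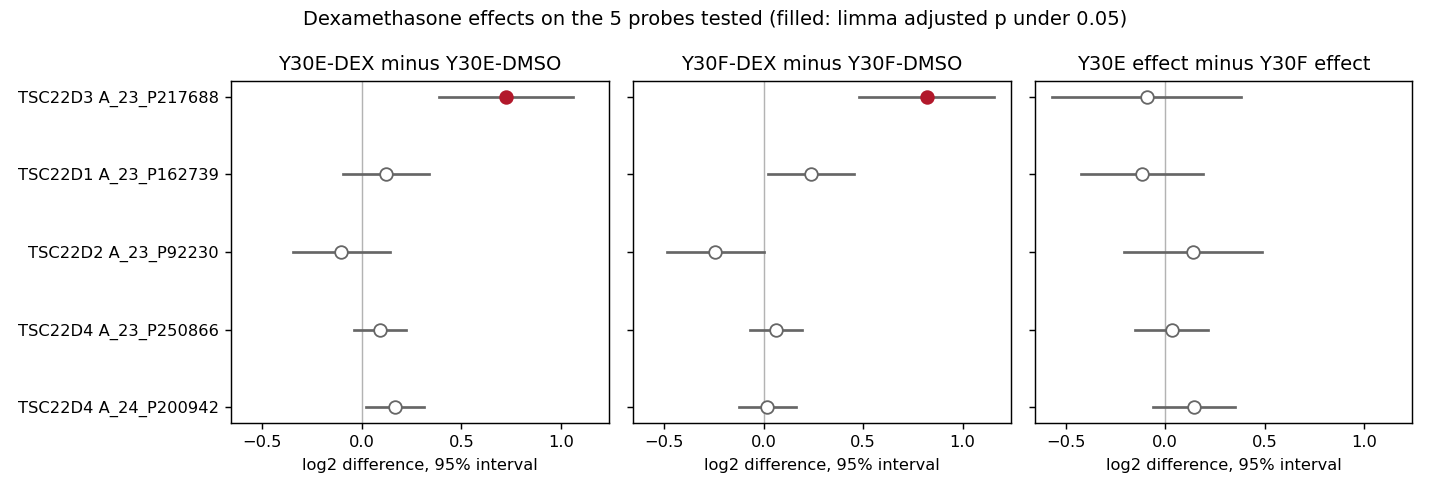
Points are log2 differences (horizontal axis) and bars 95% intervals from limma for the 5 probes tested (rows). Panels show, from the left, Y30E-DEX minus Y30E-DMSO, Y30F-DEX minus Y30F-DMSO, and the difference between these effects (Y30E minus Y30F). TSC22D3 is the one filled probe (adjusted p under 0.05) in the first panels, at 0.73 and 0.82, and no probe is filled in the last.

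Set side by side as a description, with no test, the log2 difference of TSC22D3 averaged over both receptors was 0.59 above that of TSC22D1, 0.94 above that of TSC22D2 probe A_23_P92230, and 0.70 and 0.68 above those of the TSC22D4 probes. Within slides these gaps were 0.64, 1.04, 0.74 and 0.77.

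The receptors were then compared for their response to dexamethasone, as the effect with Y30E minus that with Y30F. For TSC22D3 the difference was -0.09 ± 0.22 (log2, SE), a ratio of 0.937 with a 95% interval from 0.674 to 1.30 (limma adjusted p = 0.929). The interval is too wide to show that the receptors act alike on this gene. For the other 4 probes the differences were -0.12 to 0.15, with intervals from -0.43 to 0.48 at the widest (limma adjusted p = 0.63 to 0.938). None of the 25570 probes passed this test (0%), while 2777 (10.9%) had an unadjusted p under 0.05. That count rested on single arrays: leaving out Y30F-DEX replicate 1 gave 1262 calls, leaving out Y30E-DMSO replicate 3 gave 138, and leaving out Y30E-DEX replicate 3 gave 1. Array weights gave 1160. No family probe was among those called in these fits.

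Under the same treatment the Y30E and Y30F groups were also set against each other. For TSC22D3 the Y30E minus Y30F difference was 0.03 ± 0.15 under dexamethasone (95% interval -0.31 to 0.36) and 0.12 ± 0.15 under DMSO (-0.22 to 0.46). Across the 5 probes, differences were -0.05 to 0.09 under dexamethasone and -0.14 to 0.12 under DMSO, and none passed (limma adjusted p = 0.595 to 0.991 and 0.633 to 0.823). Over all probes 0 (0%) and 2 (0.00782%) passed, and 3460 (13.5%) and 3342 (13.1%) had an unadjusted p under 0.05. These counts moved too, to 73 and 605 without Y30F-DEX replicate 1 and to 48 and 33 without Y30E-DMSO replicate 3. No slide held both groups of either comparison.

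Within the Y30F-DMSO group the family probes did not move as 1 set between arrays. On replicate 1 TSC22D3 was 0.40 below its group mean and TSC22D1 0.21 below (deviations of -0.404 and -0.214, log2), while TSC22D2 probe A_23_P92230 was 0.24 above. On replicate 2 the deviations were 0.38, 0.13 and -0.19 in the same order. The TSC22D4 probes stayed within 0.03 of their group means on these arrays. Replicate 1 also had the lowest share of spots well above background, 60.5%, and its part in the spread of TSC22D3 was not tested.

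Among 20007 records with 1 probe each, the 5 whose log2 values followed TSC22D3 most closely over the 12 arrays had a Pearson r of 0.970 to 0.983. These points share arrays and treatment groups, so r is given as a description. The record NM_015085 was closest, with log2 differences of 0.40 with Y30E and 0.41 with Y30F. NM_001661 came next, with 0.44 and 0.53. These differences come from the values that chose the records and are given with no test. The files give no gene names for them.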

How the data were processed

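Total RNA (500 ng) from each of 12 COS-1 samples was Cy3-labelled and hybridised to an Agilent whole human genome 4x44 array, per the labels' protocols. Spot intensity was taken from the column gProcessedSignal, made by the authors with Agilent Feature Extraction 12 per the submitters' processing notes, with detrending reported in the file headers. The deposited series table held the same intensity values on every spot, within a relative tolerance of 1e-06. Spot flags came from the same files, and 1639 control spots of 45015 per array were left out.

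From each log2 signal the array's 75th percentile was subtracted (signals of 706 to 876), outlier spots (89 to 154 per array) were left out, and spots of a probe were averaged. No family spot was an outlier or saturated. To be kept, a probe needed 1 group in which every array had a share of 0.5 or more of its spots flagged as well above background. limma 3.58.1 (R 4.3.3) was fitted on 4 group means over 12 arrays, 8 residual degrees of freedom, 1 row per probe, with Benjamini-Hochberg adjustment over all probes kept. The exact permutation tests needed a value on all 12 arrays and ran on 25521 probes. Precision is limited by the 3 arrays per group, and the median SE was 0.08 (log2) for a dexamethasone effect.

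All family probes were described whatever their values, and records most like TSC22D3 were chosen by Pearson r, with only 2 named because the files hold no gene names. Pathway lists and cell markers planned by symbol were not analysed here for that reason. Slides were read from the file headers. Alternatives covered normalization, background, filters, slide, replicate number, variance model, threshold and single arrays. Normexp used the median spot signal, since the mean was not among the columns used. The members, tests and alternatives were chosen with earlier results of these data known.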

Additional observations from a re-analysis of the deposited data

Results flagged for a closer look

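The dim TSC22D2 probe A_24_P337062, which was left out of the tests, had a signal of 78.8 on Y30F-DEX replicate 3, where it was well above background. On the 6 DMSO arrays it had 13.2 to 24.3, and on the other Y30F-DEX arrays 13.6 and 17.3. The brighter TSC22D2 probe A_23_P92230 had 149 on that array, against 157 and 151 on the other Y30F-DEX arrays, so the high value was seen on 1 probe of 1 array. With every probe kept in the fit, its Y30F difference was 0.38 ± 0.58 (log2, SE, limma adjusted p = 0.867, n = 3 against 3).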

How the results depend on the processing

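TSC22D3 kept its direction in all 28 alternatives with each receptor, but several of them cannot move the size. Its log2 difference was 0.54 to 0.78 with Y30E and 0.62 to 1.01 with Y30F. It passed in 14 and 19 (lowest limma adjusted p 0.0019 and 0.00289). The number of family probes changed was 1 for each receptor as reported. It was 0 for both receptors with no filter (adjusted p = 0.106 with Y30E and 0.0624 with Y30F), with slide as a fixed block (0.309 and 0.252), within 1 slide (0.111 and 0.666), without slide 2 (0.568 and 0.443, chosen after the data were seen) and at a threshold of 0.01. It was 0 for Y30F alone with median centring (0.69, adjusted p = 0.0617) and with the compared groups alone (0.198), and 0 for Y30E alone with the replicate block (0.0715). With array weights it was 2 for Y30E, as TSC22D4 probe A_24_P200942 was added (0.19, adjusted p = 0.0378). With 1 array left out it ranged from 0 to 1 for each receptor, and it was 0 in 9 of 12 cases for Y30E and in 3 of 12 for Y30F. The fit within 1 slide rests on a lone array in 1 group, which is taken to vary like the others. With the slide block, within 1 slide and without slide 2 the TSC22D3 sizes were 0.78 and 0.77, and by construction fewer arrays stand behind them.

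Median centring moved the median of all probes in the Y30F comparison to -0.11, against 0.02 as reported, and TSC22D3 lay 0.80 above that median in both settings. Both settings subtract a single value per array, so this distance could hardly change. Normexp background correction with the 75th percentile gave the lowest Y30E value, 0.54, and the cause was not tested. TSC22D1 stayed above 0 and TSC22D2 below 0 with both receptors in all 28, several of which cannot move the size. The Y30F difference of the TSC22D4 probes changed sign in 2 of 27 and 5 of 28. No family probe passed in a comparison of the receptors under any alternative. Over all probes the counts ran from 59 to 2043 with Y30E (506 as reported) and from 7 to 1488 with Y30F (421). For the other comparisons they were 0 to 1262 for the difference of effects (0), 0 to 1447 under DMSO (2) and 0 to 478 under dexamethasone (0). Deviations of same-numbered arrays correlated at -0.131 to 0.101. Arrays of different number were not set beside them, so this cannot tell whether replicate numbers pair samples. The planned isoform contrasts were not run, since only 1 record of each gene had a probe here.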
